A study of Mus musculus with 24 samples.

Results

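Hearts of C57BL/6 mice that had lived for 2 weeks with a banded aorta were compared with hearts of the sham-operated mice that the labels set beside them. The operation, transverse aortic constriction (TAC), ties off part of the aortic arch so that the left ventricle pumps against a higher pressure. The members are the 8 libraries titled TAC-LVH and Sham-LVH, 4 of each, out of 24 in the series, and they were taken by title. This comparison and the gene lists below were chosen with earlier results of these data known. LVH is left ventricular hypertrophy. The other libraries, which come from sedentary mice, mice with a running wheel, and mice 8 weeks after TAC with their shams, enter only where the effect at 2 weeks is set beside that at 8 weeks. The labels give neither sex nor age, and they give the shams' operation but not their time after it. They name no animal for a library, so the p-values below measure the spread between these samples, which may be in part technical.

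When the ventricle works against a narrowed aorta its wall thickens, its muscle cells enlarge and switch on genes of the fetal heart, and fibroblasts lay down collagen and other matrix. Adult heart muscle takes most of its energy from fatty acids, and long-standing pressure load is known to lower the genes of that pathway. Total RNA depleted of ribosomal RNA was sequenced from whole tissue, so a lower value cannot tell fewer cells of a type from less RNA per cell.

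The 8 libraries held 18972525 to 30353572 counts, of which transcripts encoded in the mitochondrial genome took 50.7%, 55.2%, 58.4% and 53.0% in TAC replicates 1 to 4 and 64.5%, 61.9%, 59.8% and 62.9% in the shams (54.3% ± 3.3 against 62.3% ± 1.96, SD, n = 4; exact permutation p = 0.0286, two-sided and the smallest that 4 against 4 can give; 0.143 when adjusted over 5 such tests). Levels are CPM, counts per 1000000 after scaling each library to a common composition, and per-library values are in the order of replicates 1 to 4. A number without a unit after a gene's name is its log2 fold change of TAC over sham. A gene was called higher or lower, and is said to have risen or fallen, at an adjusted p under 0.05 in edgeR's quasi-likelihood test over all genes. Of 14224 genes tested 4717 were called (33.2%), 2428 higher (17.1%) and 2289 lower (16.1%). Counts of called members of a list are to be read against these shares. Of these 697 were at least 2-fold higher (4.9% of genes tested) and 351 at least 2-fold lower (2.47%). With libraries scaled to their total counts alone, the median gene was 0.41 higher in TAC on the log2 scale, and 6995 genes were called higher and 614 lower (91.9% and 8.07% of those called, against 51.5% and 48.5%). A gene given here as lower by less than that shift stands above 0 on the library scale. Every decrease below is one against the median gene. In 4664 genes (32.8%) the 4 TAC values did not overlap the 4 sham values. The tissue label was checked with ventricular markers: Myl2, the ventricular regulatory myosin light chain, stood at 902 to 1520.4 CPM in TAC hearts and 1645 to 2051 CPM in shams. Atrial light chains were present in every library, with Myl7 at 1.73 to 5.32 CPM in TAC hearts and 1.36 to 6.53 CPM in shams.

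The TAC libraries did not lie equally far from the shams over the genes called with these same libraries. TAC replicate 1 lay farthest from the sham mean in 49.8% of the genes called higher and in 54.0% of those called lower. TAC replicate 3 lay nearest to it in 45.3% and 49.0%. The same replicates held the lowest and the highest mitochondrial share of the TAC group, and its highest and lowest scaling factor (1.33 and 1.01). The part of these, or of other technical differences, was not tested. Without TAC replicate 1 the counts were 2057 higher and 1890 lower, and without TAC replicate 3 they were 2291 and 2284.

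Genes for hormones that the loaded heart releases were among those that rose. Of 16 genes for natriuretic and other secreted stress factors 9 were higher and 1 lower, where 17.1% and 16.1% of all genes tested were, with a median log2 fold change of 1.106. Nppa, which encodes atrial natriuretic peptide, stood at 828, 734, 449 and 632 CPM in the TAC hearts and 22.7, 29.0, 48.5 and 35.0 CPM in the shams. The lowest TAC heart was thus above every sham, and the mean was 19.5-fold higher (log2 fold change 4.29, SE 0.267; edgeR adjusted p = 2.17e-06). Nppb, the gene of B-type natriuretic peptide, stood at 249, 248, 214 and 319.8 CPM in the TAC hearts and 32.8, 42.6, 27.5 and 53.2 CPM in the shams, again without overlap (6.60-fold, edgeR adjusted p = 3.98e-06). Fstl1, a secreted glycoprotein of the follistatin family, had 337, 244, 193 and 284 CPM in the TAC hearts and 46.7, 53.0, 44.4 and 59.5 CPM in the shams, and its 4 TAC values lay far above the shams (log2 fold change 2.38). Igf1, the insulin-like growth factor, and Fstl3, a binder of activin, rose by 1.58 and 1.46. Ctf1, which encodes cardiotrophin, was the member that fell (-0.84, edgeR adjusted p = 0.0157, and 0.0516 without sham replicate 3). Adrenomedullin (Adm, -0.09) and angiotensinogen (Agt, -0.41) were not called.

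The enzymes and receptors around these hormones gave 3 higher and 5 lower of 15 (20.0% and 33.3%, against 17.1% and 16.1% of all genes tested). Their median was -0.17, and 0.25 with 5 higher and 3 lower with scaling to library totals. Corin, the cardiac protease that cuts pro-atrial natriuretic peptide to its active form, fell in every TAC heart, to 72.5, 67.7, 61.9 and 59.6 CPM from 108, 132, 117 and 137 CPM in the shams (log2 fold change -0.92, edgeR adjusted p = 3.02e-05). Mme, or neprilysin, which degrades the same peptides, fell as well (-1.30, edgeR adjusted p = 0.000846). Ace, the angiotensin-converting enzyme, rose from 37.0, 29.8, 35.2 and 41.4 CPM in the shams to 95.5, 90.7, 77.2 and 85.1 CPM in the TAC hearts (1.28, edgeR adjusted p = 3.98e-06). Agtr1a, the main angiotensin receptor of the mouse heart, fell (-0.72), and the endothelin receptor gene Ednrb rose by 0.68. The natriuretic peptide receptors Npr1 (0.23), Npr2 (-0.14) and Npr3 (-0.42) were not called, though Npr3 was with all 24 libraries in one fit (edgeR adjusted p = 0.0387).

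Nppa is also an atrial gene. Of 11 tested atrial markers 4 were higher, among them Nppa itself, and 2 lower. Their sum was 1024 to 1444 CPM in TAC hearts and 403 to 551 CPM in shams. That sum includes Nppa, at 449 to 828 CPM in TAC hearts and 22.7 to 48.5 CPM in shams. The atrial light chains were not called (Myl4 0.15, Myl7 -0.18), nor was sarcolipin (Sln, 0.40). Within a heart the log2 ratio of Myl7 to Myl2 counts was -7.51, -8.16, -9.76 and -8.33 in the TAC hearts and -10.24, -8.50, -8.30 and -8.48 in the shams. The groups overlapped, and sham replicate 1 and TAC replicate 3 were the lowest (exact two-sided permutation p = 0.486). Myl2, the denominator, was itself called lower in TAC, which by itself raises the ratio. Nppa in the TAC hearts had the same order as this ratio, with TAC replicate 1 highest (828 CPM) and TAC replicate 3 lowest (449 CPM, above every sham). Those 2 replicates were also most often the farthest from and the nearest to the shams over all called genes. The log2 ratio of Myl4 to Myl3 was -5.78, -6.98, -7.25 and -6.38 in the TAC hearts and -7.97, -7.15, -7.13 and -6.52 in the shams, with overlap (exact two-sided permutation p = 0.2). The part of atrial tissue in the Nppa values was not tested.

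**Figure D1:**
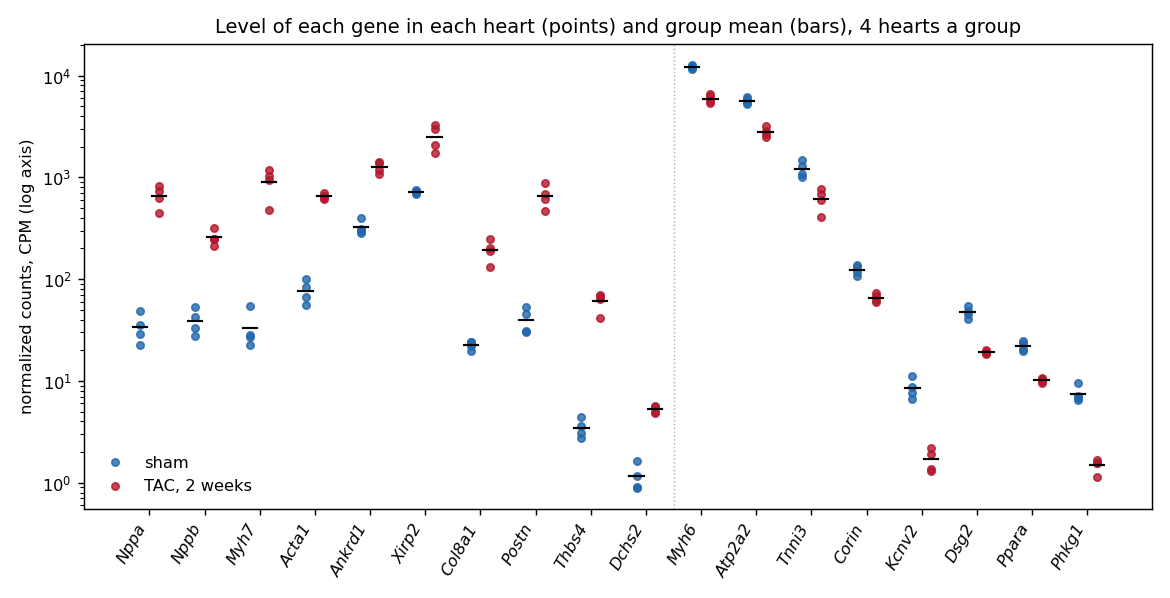
Normalized counts (CPM, log axis) of 18 genes in each of the 4 TAC hearts (red) and 4 sham hearts (blue), with bars at the group means; genes that were higher in TAC stand left of the dotted line and genes that were lower stand right of it. The groups overlap in none of the 18. Those named for the largest change were picked among genes without overlap, which make up 32.8% of all genes tested. Nppa runs from 449 to 828 CPM in TAC hearts and from 22.7 to 48.5 CPM in shams.

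Contractile genes moved in both directions. Of 42 sarcomere and Z-disc genes 9 rose (21.4%), 13 fell (31.0%) and 20 were not called, where 17.1% and 16.1% of all genes tested rose and fell. Their median was 0.01, and with scaling to library totals 20 were higher and 3 lower. Myh7, the slow beta myosin heavy chain of the fetal mouse ventricle, stood at 1188, 933, 481 and 1028 CPM in the TAC hearts and 54.7, 22.7, 26.7 and 28.2 CPM in the shams. TAC replicate 3 was the lowest of its group and sham replicate 1 the highest of its own, with a wide gap between them (27.4-fold, log2 fold change 4.77, SE 0.385; edgeR adjusted p = 2.74e-05). The adult alpha heavy chain Myh6 fell from 11560.5, 12338, 12683 and 11857 CPM in shams to 5375, 5603, 6578 and 6273 CPM in TAC hearts (2.03-fold lower, edgeR adjusted p = 4.57e-05). Acta1, the skeletal muscle actin that the fetal heart also uses, stood at 619.7, 631, 655 and 708 CPM in the TAC hearts and 67.0, 83.0, 101 and 55.6 CPM in the shams, with TAC values close together (8.54-fold, edgeR adjusted p = 3.06e-07). Cardiac actin, Actc1, had -0.39 with overlapping values (edgeR adjusted p = 0.0375, and 0.0622 to 0.102 without any 1 of TAC replicates 1 to 3 or sham replicates 2 to 4), and it stands above 0 with library totals. Troponin I (Tnni3, -0.99), troponin T (Tnnt2, -0.71) and the titin cap gene Tcap (-1.08) fell.

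Some members of the sarcomere and Z-disc list rose. Ankrd1, an ankyrin repeat protein that binds titin and shuttles to the nucleus, had 1378, 1083, 1178 and 1415 CPM in the TAC hearts and 285, 313, 296 and 401 CPM in the shams (3.90-fold). Ankrd23, a relative of Ankrd1, rose by 1.44 and Fhl1, a LIM domain protein, by 1.1599. Xirp2, an actin-binding protein of the intercalated disc, rose from 679, 757, 728 and 709 CPM to 3242, 1742, 2068 and 3016 CPM (log2 fold change 1.81, edgeR adjusted p = 1.29e-05), with all shams close together and the TAC hearts spread. The myosin kinase gene Mylk4 moved the other way, from 70.5, 58.5, 50.01 and 66.7 CPM in shams to 13.2, 17.6, 21.3 and 16.7 CPM in TAC hearts (3.57-fold lower, edgeR adjusted p = 2.96e-06).

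Start-site windows of 4 raised contractile and stress genes that hold a motif are shown because promoters of this kind are known for short motifs bound by the serum response factor (the CArG box) and by the TEAD factors of the Hippo pathway (CATTCC). The windows run from 250 bases before to 50 after the start, are from RefSeq on GRCm38.p6, and are printed on the gene's own strand. Capitals mark the CArG box and CATTCC, searched on both strands, so that GGAATG is CATTCC on the other strand. Where a gene has several windows, the first that holds the motif is shown.
Acta1, chr8:123894726-123895025, minus strand: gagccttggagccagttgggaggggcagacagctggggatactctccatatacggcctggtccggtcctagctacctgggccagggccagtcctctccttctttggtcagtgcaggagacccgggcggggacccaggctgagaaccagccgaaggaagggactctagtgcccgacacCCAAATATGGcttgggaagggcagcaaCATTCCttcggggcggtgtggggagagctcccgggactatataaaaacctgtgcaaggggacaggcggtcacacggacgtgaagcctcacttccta
Ankrd1, chr19:36119795-36120094, minus strand: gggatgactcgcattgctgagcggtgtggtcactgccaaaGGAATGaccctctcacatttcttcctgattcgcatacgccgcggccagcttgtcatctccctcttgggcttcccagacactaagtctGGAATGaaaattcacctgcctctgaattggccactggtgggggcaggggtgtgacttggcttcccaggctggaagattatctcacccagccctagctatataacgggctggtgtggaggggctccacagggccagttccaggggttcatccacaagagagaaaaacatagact
Myh7, chr14:54994577-54994876, minus strand: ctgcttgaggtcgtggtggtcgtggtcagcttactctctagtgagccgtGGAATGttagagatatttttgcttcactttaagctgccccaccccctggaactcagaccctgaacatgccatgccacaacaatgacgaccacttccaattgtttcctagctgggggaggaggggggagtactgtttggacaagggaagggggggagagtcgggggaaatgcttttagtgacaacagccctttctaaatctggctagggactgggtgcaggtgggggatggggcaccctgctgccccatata
Nppb, chr4:147985650-147985949, plus strand: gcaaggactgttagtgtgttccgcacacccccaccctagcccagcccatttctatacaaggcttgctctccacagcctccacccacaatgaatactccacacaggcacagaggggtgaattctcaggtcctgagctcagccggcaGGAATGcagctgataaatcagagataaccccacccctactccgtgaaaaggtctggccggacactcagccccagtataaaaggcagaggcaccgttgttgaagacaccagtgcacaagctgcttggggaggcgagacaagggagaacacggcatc
The Acta1 window holds 1 CArG box and 1 CATTCC, the Ankrd1 window 2 copies of CATTCC, and the windows of Myh7 and Nppb 1 each.

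A CArG box lay in a window of 9 of the 36 tested sarcomere and Z-disc genes with an entry (25%). It did in 1.59% of the 10296 tested genes with an entry and in 1.81% of all 27025 genes with an entry. CATTCC lay in 14 of the 36 (38.9%), against 14.7% of the tested genes and 16.6% of all genes with an entry. Genes with either motif moved in both directions. Of the 9 with a CArG box 2 rose (Acta1 and Fhl1), 4 fell, among them Nebl (-0.57), and 3 were not called. Of the 14 with CATTCC 5 rose, Myh7 and Ankrd1 among them, 4 fell, Myh6 and Tnnt2 among them, and 5 were not called. Of the 9 members of the list that rose 3 held neither motif, Xirp2 among them, as did 7 of the 9 raised hormone genes with an entry, Nppa and Fstl1 among them. A match is a stretch of letters and not a shown binding site.

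Genes of the extracellular matrix rose in list after list. Of 9 fibrillar collagen genes tested 8 rose and 0 fell, with a median log2 fold change of 2.62. Col1a1 and Col3a1, the main collagens of scar, had 415, 239, 159 and 326 CPM and 1212, 758, 658 and 1080.1 CPM in TAC hearts and 36.7, 32.3, 26.5 and 48.6 CPM and 88.0, 113, 105 and 164 CPM in shams. Every TAC heart was above every sham for both (log2 fold change 2.98 and 2.98, edgeR adjusted p = 9.81e-05 and 7.84e-06). The ratio of Col1a1 to Col3a1 within a heart did not separate the groups (exact permutation p = 0.886). Col5a2, a minor chain that sets fibril width, rose by 2.89 and Col11a1 by 4.22. Of the 22 other collagens 17 rose and 1 fell (median 1.66). Col8a1, a short-chain network collagen, had 248, 188, 131 and 203 CPM in the TAC hearts and 22.0, 19.7, 24.2 and 24.3 CPM in the shams, and Col8a2 rose 19.6-fold from 0.426 to 0.730 CPM to 8.21 to 16.8 CPM (edgeR adjusted p = 4.98e-07). Col12a1, which lies on the surface of fibrils, rose 14.2-fold and Col16a1 by 2.58. The basement membrane chains Col4a1 (1.62) and Col4a2 (1.505) rose less, and Col6a6 was the member that fell (-0.51, edgeR adjusted p = 0.00995, but 0.0626 with all 24 libraries in one fit).

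Enzymes that fold, trim and crosslink collagen rose with it, 23 of 33 higher and 1 lower (median 0.59). Lox, the lysyl oxidase that starts crosslinks, stood at 98.1, 56.4, 31.2 and 59.5 CPM in the TAC hearts and 2.34, 4.01, 2.96 and 4.58 CPM in the shams (17.8-fold, edgeR adjusted p = 0.000171). TAC replicate 1 was its highest value and TAC replicate 3 its lowest, and all were far above the shams. Its relatives Loxl1 (1.84), Loxl2 (2.18) and Loxl3 (2.50) rose too. Bmp1 and Adamts2, which cut the ends off procollagen, rose by 1.169 and 2.13, and Pcolce, their enhancer, by 1.234.

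Proteins that attach to collagen rose in most cases. Among 25 matricellular genes, whose products signal from the matrix to cells, 22 rose and 0 fell (median 2.28). Thbs4, a thrombospondin of stressed muscle, had 67.9, 64.4, 41.3 and 69.9 CPM in the TAC hearts and 3.62, 4.38, 2.76 and 3.07 CPM in the shams (17.8-fold, edgeR adjusted p = 3.06e-07). Periostin (Postn), a product of activated fibroblasts, had 871, 613, 462 and 679 CPM in the TAC hearts and 31.1, 30.2, 45.7 and 53.4 CPM in the shams (16.3-fold). Both are among the genes of largest change, which were picked among genes without overlap. TAC replicate 3 was again the lowest TAC value of each. Cilp, a cartilage matrix protein, rose 13.3-fold, Comp with a log2 fold change of 3.44, Sparc by 1.94 and Ccn5 by 2.35. Small leucine-rich proteoglycans and hyaluronan genes gave 22 higher and 1 lower of 29, with Aspn at 2.37, Lum at 1.58, Fmod at 2.94 and Bgn at 1.75. The cell surface proteoglycan Gpc1 was the member that fell (-0.55, edgeR adjusted p = 0.000433).

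Of 17 elastic fibre genes 13 rose and 2 fell. Ltbp2, a microfibril protein, rose 17.5-fold to 118, 97.0, 55.5 and 95.4 CPM from 5.88, 4.01, 5.43 and 5.36 CPM in shams. Mfap5 (2.73), Fbn1 (2.56) and Eln, the gene of elastin itself (3.14), rose as well. Emilin2 and Efemp1 fell (-0.94 and -0.84, edgeR adjusted p = 6.30e-05 and 0.00612). In the basement membrane list 10 of 16 rose and 1 fell: Frem1 rose by 3.97, the laminin chain Lama2 by 0.62 and the linker Nid1 by 0.96, while the laminin chain Lamb3 fell (-1.17).

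Matrix proteases and their inhibitors rose together, 23 of 37 higher and 2 lower. Timp1, an inhibitor of metalloproteases, had 14.8, 9.47, 7.05 and 8.79 CPM in the TAC hearts and 0.507, 1.28, 1.135 and 0.544 CPM in the shams (11.99-fold, edgeR adjusted p = 1.50e-05), and Mmp2, a gelatinase, rose by 2.01. The log2 ratio of Timp1 to Mmp2 counts within a heart was -3.04, -3.77, -3.72 and -3.82 in the TAC hearts and -5.64, -4.30, -4.70 and -6.05 in the shams, which is 3.001 times higher after TAC with no overlap (exact permutation p = 0.0286, two-sided; adjusted over 17 ratios, p = 0.0540). Serpinf1, the pigment epithelium-derived factor, rose from 8.45 to 11.8 CPM to 33.0 to 41.4 CPM (3.60-fold). Adamts7 (-0.93) and the serine protease Htra1 (-0.62) fell.

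Fibroblast markers moved with the matrix, and the lists share members. Of 18 markers of activated fibroblasts 15 rose and 0 fell, with a sum of 868 to 1460.4 CPM in TAC hearts and 108 to 153 CPM in shams. Of 18 markers of resident fibroblasts 14 rose and 1 fell (median 0.62 against 2.78 in the activated list), with a sum of 1888 to 2277 CPM in TAC hearts and 1273 to 1569 CPM in shams. Pdgfra (0.57), Tcf21 (1.197) and Dcn (0.75), defining genes of resident fibroblasts, rose. Acta2, the smooth muscle actin of myofibroblasts and vessels, was not called (0.16, edgeR adjusted p = 0.518). The part of cell number in the matrix results was not tested.

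**Figure D2:**
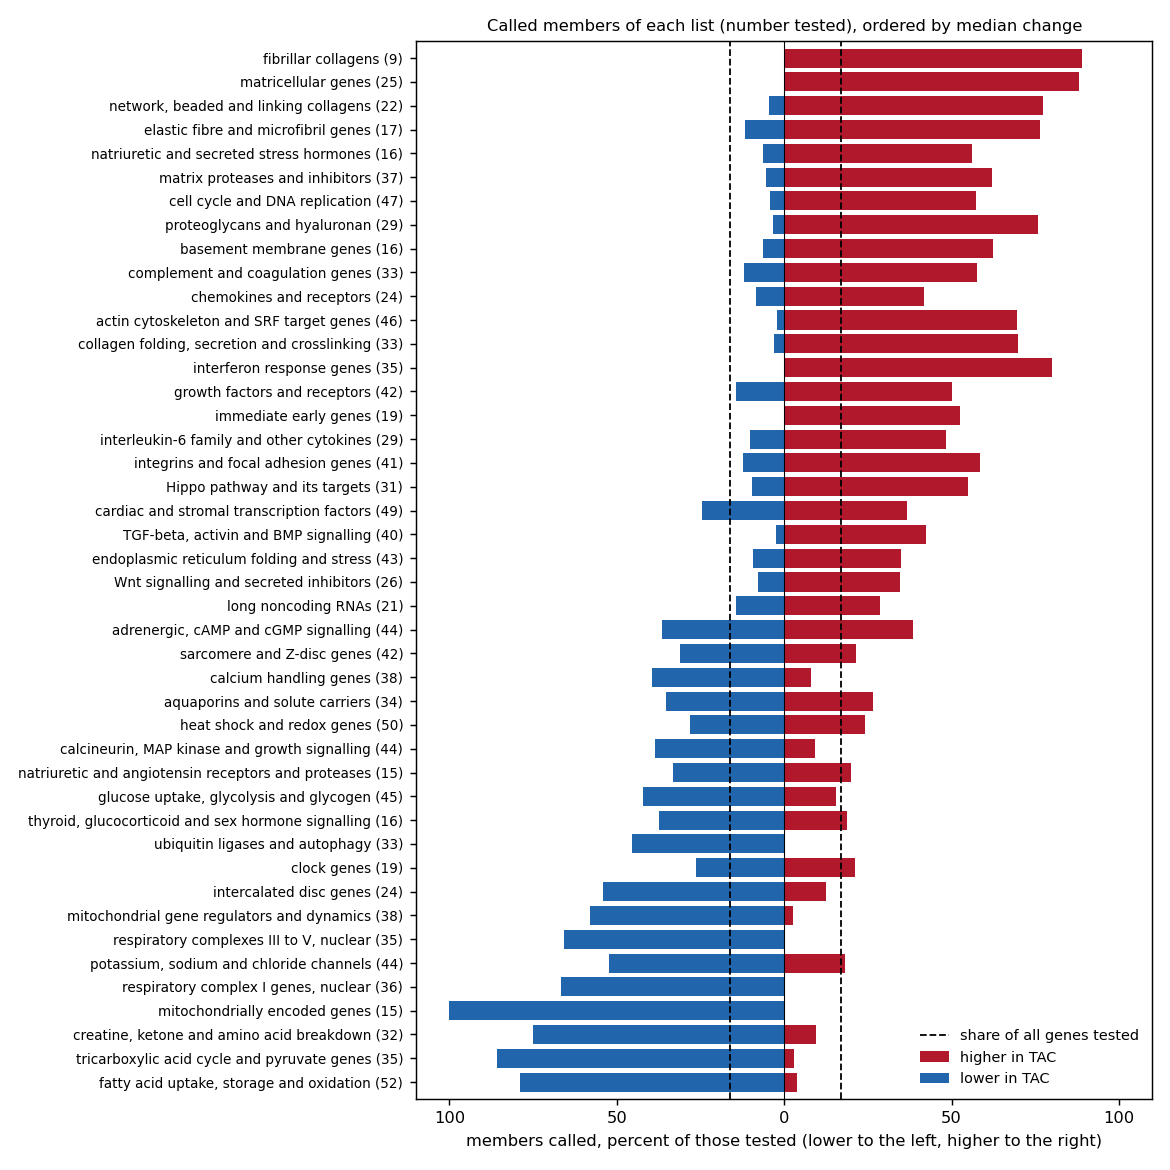
Percent of the tested members of 44 lists that were called higher (red, to the right) or lower (blue, to the left) 2 weeks after TAC, with the number tested in brackets and the lists ordered by median log2 fold change; dashed lines mark the shares over all genes tested, 17.1% higher and 16.1% lower. Fibrillar collagens stand at the top with 8 of 9 members higher, and fatty acid genes at the bottom with 41 of 52 lower.

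Secreted signals to fibroblasts and vessels changed as well. In the list of TGF-beta, activin and BMP signalling 17 of 40 genes rose and 1 fell (median 0.35). The ligand Tgfb3 had 26.4, 24.7, 16.6 and 26.2 CPM in the TAC hearts and 6.35, 7.11, 8.39 and 8.43 CPM in the shams (log2 fold change 1.63, edgeR adjusted p = 8.84e-06), and Tgfb2 rose by 1.603. Tgfb1, the ligand best known in fibrosis, had 0.76 and was not called (edgeR adjusted p = 0.0546). It was called by DESeq2 (adjusted p = 0.0205), and by edgeR with all 24 libraries in one fit (0.0273), with library totals (0.0143) and without TAC replicate 3 (0.0294) or sham replicate 1 (0.0199). The receptor gene Tgfbr1 rose (0.92), while the co-receptor Tgfbr3 fell (-0.55, edgeR adjusted p = 0.00115). Skil, a repressor of the pathway that the pathway itself induces, rose by 0.84.

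In the Wnt list, which holds its secreted inhibitors, 9 of 26 genes rose and 2 fell (with library totals 17 and 0). Sfrp2, which binds Wnt ligands outside the cell, had 15.5, 18.6, 13.05 and 17.6 CPM in the TAC hearts and 1.36, 1.95, 1.297 and 2.37 CPM in the shams (9.30-fold, edgeR adjusted p = 3.06e-07). Frzb (2.70), Sfrp1 (2.01) and Dkk3 (1.63), of the same kind, rose, as did the receptors Fzd1 (1.35) and Fzd2 (1.05). The ligands Wnt5a (-0.54) and Wnt2b (-0.70) fell, but both calls rest on single libraries, with edgeR adjusted p = 0.0501 and 0.0513 for Wnt5a without TAC replicate 1 or sham replicate 2, and 0.0544 and 0.0615 for Wnt2b without TAC or sham replicate 4.

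Of 42 genes of growth factors and their receptors 21 rose and 6 fell (with library totals 30 and 2). Igfbp7, a binding protein of insulin-like growth factors, had 180.0, 174, 148 and 170.4 CPM in the TAC hearts and 42.4, 49.5, 54.8 and 49.0 CPM in the shams (3.44-fold), with little spread in either group. Ptn (2.57) and the hepatocyte growth factor receptor Met (1.46) rose. Among those that fell were the fibroblast growth factors Fgf13 (-0.98), Fgf1 (-0.77) and Fgf16 (-0.69, edgeR adjusted p = 0.00612, but 0.0724 with all 24 libraries in one fit) and the neuregulin receptors Erbb4 (-0.66) and Erbb3 (-0.49). Cytokine genes gave 14 higher and 3 lower of 29 (with library totals 23 and 1). Tnfrsf12a, the receptor of the TWEAK cytokine, had 23.0, 19.99, 19.4 and 28.3 CPM in the TAC hearts and 5.85, 6.69, 5.59 and 7.38 CPM in the shams (log2 fold change 1.83, edgeR adjusted p = 1.51e-06). The receptor of leukaemia inhibitory factor, Lifr, fell (-0.63), as did Il15 (-1.03).

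Adhesion and cytoskeleton genes rose in large part. Integrin and focal adhesion genes gave 24 higher and 5 lower of 41 (with library totals 31 and 0). Itga11, a collagen receptor of fibroblasts, rose by 2.24, Itgb5 by 0.98 and Itgav by 0.72. Itga7, the laminin receptor of muscle, fell (-0.33, but above 0 with library totals), and the ratio of Itga5 to Itga7 within a heart was 2.03 times higher after TAC without overlap (exact permutation p = 0.0286, adjusted p = 0.0540). Of 46 actin, tubulin and serum response factor target genes 32 rose and 1 fell. Tagln, a smooth muscle actin binder, rose by 1.03, vimentin (Vim) by 1.06 and Cnn1 by 2.03. Srf, the factor itself, had -0.07 and its coactivator gene Mrtfb -0.14, neither of them called, and the coactivator Myocd was the member that fell (-0.48, edgeR adjusted p = 0.00792, but 0.0662 with all 24 libraries in one fit and 0.709 with library totals).

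In the Hippo list, which holds Dchs2, the gene named in the title of the series, 17 of 31 genes rose and 3 fell. Dchs2, a large cadherin of the Dachsous family, had 5.66, 4.82, 5.56 and 4.999 CPM in the TAC hearts and 1.64, 0.912, 0.892 and 1.166 CPM in the shams (4.48-fold, edgeR adjusted p = 3.39e-06), all TAC hearts close together and no sham above 1.64 CPM. Dchs1 had 42.5, 33.6, 30.1 and 39.1 CPM in the TAC hearts and 23.7, 16.5, 13.1 and 19.3 CPM in the shams (1.999-fold). Ccn2, a target of the pathway and a matricellular protein, stood at 189, 169, 86.0 and 155 CPM in the TAC hearts and 19.4, 16.7, 31.2 and 20.2 CPM in the shams, with TAC replicate 1 the highest. Yap1 (-0.17), Tead1 (-0.25) and Lats2 (0.13), the coactivator, its DNA-binding partner and a kinase of the pathway, were not called, though Tead1 was without sham replicate 3 (edgeR adjusted p = 0.0248). CATTCC lay in a start-site window of 13 of the 25 Hippo genes with an entry (52.0%), a list that includes known targets of the TEAD factors.

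Genes of the junctions between heart muscle cells fell more often than they rose, relative to the median gene. Of 24 intercalated disc genes 3 rose and 13 fell (median -0.39, and 0.03 with 8 higher and 3 lower when libraries were scaled to their totals). The sum of the list went the other way, at 3341 to 5045 CPM in TAC hearts and 2953 to 3180 CPM in shams. The largest rise of a member was 1.81, the value given above for Xirp2. Dsg2, the desmosomal cadherin of the heart, had 18.7, 18.4, 20.1 and 19.1 CPM in the TAC hearts and 45.1, 54.7, 40.7 and 49.1 CPM in the shams (2.48-fold lower, edgeR adjusted p = 1.51e-06), and its TAC values spanned less than 2 CPM. Its partner Dsc2 (-0.60), the ankyrins Ank3 (-0.72) and Ank2 (-0.65) and the catenin Ctnna3 (-0.67) fell. Connexin 43 (Gja1) was not called (0.02, edgeR adjusted p = 0.948). N-cadherin (Cdh2) fell (-0.41), a value near 0 with library totals.

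Channel genes fell more often than they rose, 23 of 44 lower (52.3%) and 8 higher (18.2%), where 16.1% and 17.1% of all genes tested were. Their median was -0.57, and with library totals 18 were lower and 13 higher (median -0.15). Kcnv2, a silent subunit that modifies potassium channels, had 8.65, 11.1, 7.66 and 6.57 CPM in the shams and 1.37, 1.93, 2.17 and 1.296 CPM in the TAC hearts (5.02-fold lower, edgeR adjusted p = 4.05e-06). Kcnj3 (-1.50) and Kcnj5 (-1.10), which form the channel opened by acetylcholine, fell together, and they are also listed as atrial markers. Scn4b, a sodium channel beta subunit, had 20.8, 15.99, 15.7 and 25.6 CPM in the shams and 3.15, 5.78, 7.93 and 4.75 CPM in the TAC hearts (3.64-fold lower), and Kcnip2, a subunit of the transient outward current, fell (-0.91). The stretch-gated channels Piezo1 and Piezo2 rose (0.68 and 2.69, edgeR adjusted p = 0.000905 and 9.00e-05).

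Calcium handling genes were called lower in 15 of 38 cases and higher in 3, and 20 were not called, but with scaling to library totals 6 were lower and 16 higher. Atp2a2, the calcium pump of the sarcoplasmic reticulum, had 5204, 6104, 5493 and 5911 CPM in the shams and 2483, 2687, 3197 and 2839 CPM in the TAC hearts (log2 fold change -1.02, edgeR adjusted p = 5.25e-05). Its inhibitor phospholamban (Pln) fell too (-0.83), and the ratio of Pln to Atp2a2 within a heart did not separate the groups (exact permutation p = 0.171). Hrc, which binds calcium in the store (-1.34), and Ryr2, the release channel (-0.77), fell, and Camk2a, a calcium-activated kinase, fell from 13.5 to 16.7 CPM to 6.16 to 7.33 CPM. The exchanger gene Slc8a1 (0.00) and calsequestrin (Casq2, -0.03) were not called.

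Adrenergic and cyclic nucleotide signalling genes gave 17 higher and 16 lower of 44 (with library totals 22 and 7). The alpha receptors Adra1a (-1.40) and Adra1b (-1.28) and the beta receptor Adrb1 (-0.57) fell. Adcy7, an adenylyl cyclase, rose from 11.7, 10.2, 11.1 and 15.97 CPM to 47.1, 40.4, 31.1 and 45.0 CPM (1.73, edgeR adjusted p = 1.08e-05), whereas the cardiac cyclases Adcy5 (-0.35, but above 0 with library totals) and Adcy6 (-0.59) fell. The cAMP phosphodiesterase genes Pde4d (-0.83) and Pde4a (-0.98) fell, and Pde5a, which acts on cGMP, rose (0.64), as did the guanylyl cyclase subunits Gucy1a1 (0.62) and Gucy1b1 (0.51).

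Growth signalling genes inside the cell were called lower in 17 of 44 cases and higher in 4 (median -0.15), but with library totals the counts turned to 2 lower and 20 higher. Rcan1, which calcineurin activity induces, rose by 1.67 (edgeR adjusted p = 0.00128) and Dusp6, a phosphatase of MAP kinases, by 0.82. Pik3r1, the regulatory subunit of phosphoinositide 3-kinase, fell from 107, 137, 181 and 116 CPM to 57.3, 79.7, 59.8 and 53.6 CPM (-1.11), and Hdac4 (-0.92) and Akt2 (-0.60) fell. The calcineurin subunits Ppp3ca (-0.07) and Ppp3cb (-0.14) were not called. Thyroid and steroid hormone genes gave 3 higher and 6 lower of 16 (18.8% and 37.5%, against 17.1% and 16.1% of all genes tested). With library totals they gave 5 and 3, and their median of -0.23 turned to 0.17. Dio2, the deiodinase that activates thyroid hormone inside cells, had 23.4, 20.1, 14.5 and 27.6 CPM in the TAC hearts and 1.44, 2.61, 2.07 and 2.72 CPM in the shams (9.79-fold, edgeR adjusted p = 3.98e-06), and the receptor Thrb fell (-0.88). Thra was not called (-0.13).

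Genes of energy metabolism fell. Of 52 genes of fatty acid uptake, storage and oxidation 41 fell and 2 rose (median -0.94; with library totals 34 and 7, median -0.54). Pnpla2, the lipase that frees stored fat, had 65.4, 64.3, 63.3 and 64.2 CPM in the shams and 29.1, 35.9, 34.6 and 31.4 CPM in the TAC hearts (log2 fold change -0.97, edgeR adjusted p = 5.17e-06). Lpl, the lipase that frees fatty acids from lipoproteins, fell (-0.98). Crat (-1.05), Slc27a1 (-1.16) and Etfa (-0.996) fell as well, and Ces1d, a carboxylesterase, went from 40.7 to 51.6 CPM to 5.31 to 15.3 CPM (4.45-fold lower). Fabp5 (0.63) and Acsl5 (0.76) were the members that rose. The muscle transferase Cpt1b fell more than the liver form Cpt1a (-0.72 and -0.27). Cpt1a stands above 0 with library totals, and its edgeR adjusted p of 0.0488 becomes 0.0662 to 0.153 without any 1 of TAC replicates 1, 3 and 4 or sham replicates 2 and 4. The ratio of Cpt1a to Cpt1b within a heart was 1.37 times higher without overlap (exact permutation p = 0.0286, adjusted p = 0.0540).

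The tricarboxylic acid cycle and pyruvate list held 30 lower and 1 higher of 35 (with library totals 15 and 1). Citrate synthase (Cs) had 405, 461, 487 and 449.9 CPM in the shams and 229, 248, 262 and 244 CPM in the TAC hearts, with a log2 fold change of -0.87. Sdha (-0.93) and the pyruvate dehydrogenase kinase Pdk2 (-0.95) fell, while Pdk3 rose (0.97). Nuclear genes of complex I fell in 24 of 36 cases and those of complexes III to V in 23 of 35, with none higher in either list. With library totals those counts were 7 and 3, although the medians stayed below 0 (-0.22 and -0.17). The complex I subunits Ndufv1 (-0.80) and Ndufab1 (-0.73) were among those that fell. All 15 transcripts of the mitochondrial genome fell (median -0.67), and 8 did with library totals. Their regulators and the genes of mitochondrial shape fell in 22 of 38 cases and rose in 1 (with library totals 7 and 8). Ppara, the nuclear receptor of fatty acid oxidation, had 19.7, 24.7, 20.6 and 23.6 CPM in the shams and 10.4, 10.6, 9.91 and 9.57 CPM in the TAC hearts (2.19-fold lower, edgeR adjusted p = 3.66e-06). Ppargc1a (-0.99), Perm1 (-0.77) and the fusion gene Mfn2 (-0.78) fell, and Tfam was not called (-0.16).

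The half-site AAGGTCA, which oestrogen-related receptors bind, is shown in the window of Acadm, the medium-chain acyl-CoA dehydrogenase and a known target (-0.98 here).
Acadm, chr3:153944594-153944893, minus strand: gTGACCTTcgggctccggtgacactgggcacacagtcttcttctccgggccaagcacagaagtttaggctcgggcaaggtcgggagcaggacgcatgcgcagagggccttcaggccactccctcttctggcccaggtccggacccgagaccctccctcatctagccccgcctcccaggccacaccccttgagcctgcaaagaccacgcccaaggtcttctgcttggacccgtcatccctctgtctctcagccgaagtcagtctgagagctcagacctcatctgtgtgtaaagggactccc
It lay in a window of 3 of the 40 fatty acid genes with an entry (7.5%) and 3 of 31 tricarboxylic acid cycle genes (9.68%). The shares were 3.86% of tested genes and 5.38% of all genes with an entry. Capitals mark it, on the other strand in this window. A window without a match says only that these letters are not in it.

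Glucose genes fell more often than they rose relative to the median gene. Of 45 tested 19 fell (42.2%) and 7 rose (15.6%), where 16.1% and 17.1% of all genes tested did, so the share that rose was no larger than over all genes. Their median was -0.22, but 0.19 with library totals, where 11 were lower and 18 higher. Genes of glycogen use and storage were among those that fell. Phkg1, the catalytic subunit of phosphorylase kinase in muscle, had 6.74, 7.17, 6.53 and 9.48 CPM in the shams and 1.139, 1.68, 1.57 and 1.54 CPM in the TAC hearts (5.05-fold lower, edgeR adjusted p = 1.20e-06), and Gys1 (-0.73) and Pygm (-0.94) fell. Fbp2, the muscle fructose bisphosphatase, fell 3.48-fold. Ratios of related forms within a heart do not depend on how libraries are scaled. The ratio of Slc2a1 to Slc2a4, the glucose transporters, was 2.06 times higher, that of Hk1 to Hk2 1.51 times, that of Eno1 to Eno3 2.15 times and that of the creatine kinases Ckb to Ckm 2.78 times. In each of these 4 ratios the groups did not overlap (exact permutation p = 0.0286, adjusted p = 0.0540 over 17, so that none of the 17 passed 0.05 after adjustment). The largest shifts of the 17 were those of Myh7 to Myh6 (56.4 times) and of Acta1 to Actc1 (11.4 times).

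**Figure D3:**
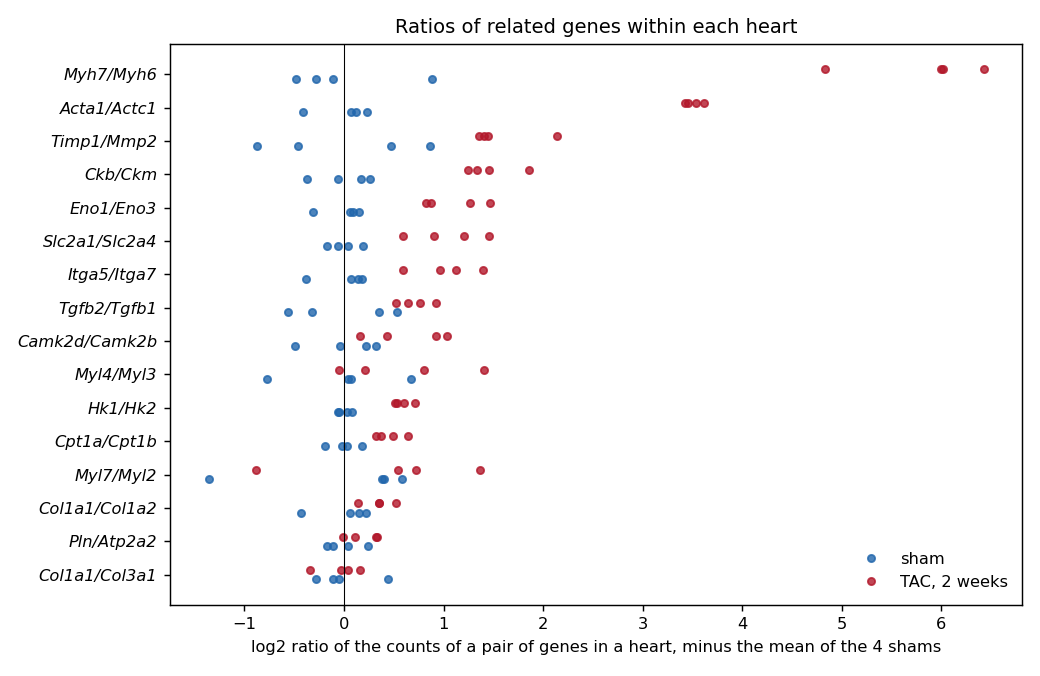
Log2 ratio of the counts of 16 pairs of related genes within each of the 4 TAC hearts (red) and 4 shams (blue), drawn relative to the mean of the shams. In 9 pairs the groups do not overlap, from Myh7 to Myh6 at 56.4 times higher in TAC to Cpt1a to Cpt1b at 1.37 times.

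Genes that break down branched-chain amino acids fell too. In the list of creatine, ketone and amino acid genes 24 of 32 fell and 3 rose (with library totals 15 and 5). Ppm1k, the phosphatase that activates the branched-chain dehydrogenase, had 73.3, 77.3, 75.5 and 85.9 CPM in the shams and 31.5, 32.4, 44.3 and 33.4 CPM in the TAC hearts (log2 fold change -1.14, edgeR adjusted p = 1.18e-05). Ivd (-1.14), Bcat2 (-0.78) and Pcca (-0.84), enzymes of the same path, fell. Bcat1, the transaminase found outside muscle, rose (0.97), and Gatm, which makes the precursor of creatine, rose by 1.104. Oplah, the oxoprolinase of the glutathione cycle, had 29.1, 27.3, 28.1 and 29.3 CPM in the shams and 13.1, 14.04, 15.2 and 14.3 CPM in the TAC hearts (2.01-fold lower), and Gpt, alanine aminotransferase, fell 3.03-fold.

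Ventricular muscle markers were lower beside these groups. Of 10 tested 7 fell and none rose (with library totals 4 and 1), with a sum of 9424 to 13073 CPM in TAC hearts and 18395 to 22157 CPM in shams. The mitochondrial share of counts was lower too, as given above. With the mitochondrially encoded genes left out of the fit, 2418 genes were higher and 2280 lower. All 269 genes examined under the alternatives kept their call, or lack of one, in that fit. Beyond that, the part of either in the lower channel, calcium and energy genes was not tested.

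**Figure D4:**
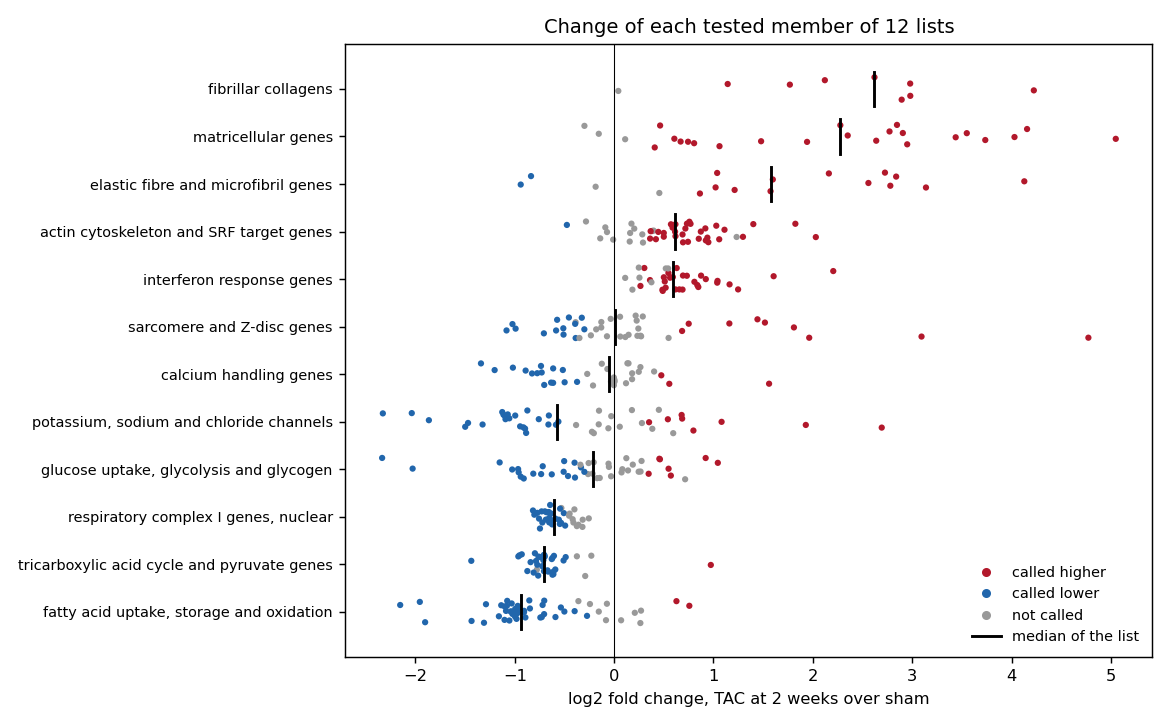
Log2 fold change of every tested member of 12 lists 2 weeks after TAC (points; red called higher, blue called lower, grey not called), with a bar at the median of each list. The sarcomere list spreads from -1.08 to 4.77 around a median of 0.01, whereas complex I genes lie in a narrow band below 0.

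Of 43 genes of protein folding and stress in the endoplasmic reticulum 15 rose and 4 fell (with library totals 29 and 2). Kdelr3, a receptor that returns chaperones to the reticulum, had 8.69, 8.59, 6.52 and 9.503 CPM in the TAC hearts and 2.34, 2.13, 2.03 and 2.72 CPM in the shams (log2 fold change 1.85, edgeR adjusted p = 2.47e-06). The chaperone Hspa5, the usual readout of folding stress, fell (-0.50, edgeR adjusted p = 0.00308), as did Herpud1 (-1.25). Of 50 heat shock and redox genes 12 rose and 14 fell, but with library totals 20 were higher and 4 lower (median -0.09, turning to 0.32). Nox4, an oxidase that makes hydrogen peroxide, rose from 1.1301, 0.669, 1.09 and 1.75 CPM to 9.22, 13.3, 7.65 and 8.42 CPM (3.002), and Cybb, the oxidase of phagocytes, by 0.97. Sod2 (-0.95) and Sod1 (-0.77) fell. No ubiquitin ligase or autophagy gene rose and 15 of 33 fell (median -0.26, but 0.15 with library totals, where 11 were higher). Asb15, a muscle ligase adaptor, had 33.2, 32.9, 27.7 and 32.1 CPM in the shams and 11.8, 12.8, 14.6 and 13.3 CPM in the TAC hearts (2.40-fold lower, edgeR adjusted p = 1.51e-06), and the atrophy ligase Trim63 fell (-0.54).

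Of 49 transcription factors of heart muscle and stroma 18 rose and 12 fell (with library totals 28 and 3). Their median of 0.36 was 0.0736 over those of at least 5 CPM in 4 libraries. Meox1, a factor of activated fibroblasts, had 30.5, 24.2, 22.2 and 35.0 CPM in the TAC hearts and 4.09, 3.28, 3.12 and 6.37 CPM in the shams (log2 fold change 2.71, edgeR adjusted p = 1.30e-05), and Runx1 (1.82) and Scx (1.42) rose. The muscle factors Tbx5 (-0.95), Hopx (-1.29) and Klf15 (-1.26) fell, while Gata4 (-0.11) was not called. Nkx2-5 fell (-0.39) but stands above 0 with library totals. Immediate early genes rose in 10 of 19 cases and none fell, with Egr2 at 2.67 and Junb at 0.87. Clock genes gave 4 higher and 5 lower of 19 (with library totals 6 and 2), with Arntl at 1.85 and overlapping values (edgeR adjusted p = 0.00761, but 0.0535 without the low-count filter), and the labels give no time of day.

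Water and ion transporters gave 9 higher and 12 lower of 34 (with library totals 16 and 4). Aqp4, a water channel, had 3.82, 7.30, 6.36 and 7.46 CPM in the shams and 1.06, 1.51, 1.81 and 1.27 CPM in the TAC hearts (4.41-fold lower, edgeR adjusted p = 2.08e-05). Fxyd5 and Fxyd6, small membrane proteins that regulate ion transport, rose by 1.37 and 1.43.

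By annotated class, of 12732 protein-coding genes 2362 rose (18.6%) and 2127 fell (16.7%), where 17.1% and 16.1% of all genes tested did. Of 252 antisense genes 8 rose (3.17%) and 40 fell (15.9%), and of 208 long intergenic RNA genes 8 rose (3.85%) and 28 fell (13.5%). In these 2 classes the share that rose was thus below that of all genes, while the share that fell was near it or below it. At least 2-fold lower were 21 of the 252 and 13 of the 208, against 351 of all 14224 (2.47%). At least 2-fold higher were 5 and 3, against 697 (4.9%). How the counting treated strand is not given in the sources used here, so reads of an antisense gene cannot be told from those of its partner. Among named long noncoding RNAs 6 of 21 rose and 3 fell (with library totals 11 and 2). Dnm3os, the host of a fibroblast microRNA cluster, had 17.5, 14.3, 8.54 and 14.1 CPM in the TAC hearts and 4.36, 3.89, 4.50 and 5.17 CPM in the shams (log2 fold change 1.596, edgeR adjusted p = 7.70e-05). Mhrt, which lies antisense to Myh7, fell (-0.98), and H19 rose (0.62, edgeR adjusted p = 0.00248).

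Macrophage markers rose. Of 28 macrophage and monocyte markers 20 rose and 1 fell, with a sum of 411 to 471 CPM in TAC hearts and 229 to 292 CPM in shams. The defining genes Adgre1 (1.32), Csf1r (0.54) and C1qa (0.71) rose, and so did the class II genes H2-Aa (1.155) and H2-Eb1 (1.07). Ccr2, a receptor of monocytes that enter from blood, had 14.4, 10.2, 10.6 and 10.2 CPM in the TAC hearts and 2.69, 2.31, 3.08 and 4.51 CPM in the shams (log2 fold change 1.83, edgeR adjusted p = 1.74e-05). Lyve1, a marker of resident macrophages and lymphatic vessels, had -0.64 with overlapping values (edgeR adjusted p = 0.0388, and 0.0598 to 0.116 without any 1 of TAC replicates 3 and 4 or sham replicates 2 to 4). Of 25 markers of T, NK and B cells only 2 had enough counts to be tested.

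Chemokine genes gave 10 higher and 2 lower of 24 (with library totals 14 and 1). The ligands Cxcl16 (1.33) and Ccl12 (2.21) rose, and the eosinophil ligand Ccl11 fell (-1.76, edgeR adjusted p = 0.000883). Complement and coagulation genes gave 19 higher and 4 lower of 33 (with library totals 22 and 1), with Anxa1, a brake on inflammation, at 1.42 and Cd55, which protects cells from complement, at 1.04. Tissue factor (F3, -0.63) and its inhibitor Tfpi (-0.48) fell. Interferon response genes were higher in 28 of 35 cases with none lower, by small amounts (median 0.59). Irf7, a regulator of that response, had 8.20, 6.96, 7.81 and 6.94 CPM in the TAC hearts and 3.27, 3.89, 3.57 and 5.01 CPM in the shams. Macrophage markers moved with these groups, and their part in them was not tested.

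Of 47 genes of the cell cycle and DNA replication 27 rose and 2 fell, from low levels. Cdk1, the mitotic kinase, had 1.37, 0.922, 1.57 and 1.36 CPM in the TAC hearts and 0.195, 0.365, 0.284 and 0.466 CPM in the shams (log2 fold change 1.99, edgeR adjusted p = 0.000287), and Mcm6, a replication helicase subunit, rose by 0.90. Cenpf fell instead (-1.38, edgeR adjusted p = 2.98e-05). The cells that carry these transcripts cannot be told from whole tissue.

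Of 25 endothelial markers 11 rose, 1 fell and 13 were not called. Their sums overlapped, at 1469 to 1708 CPM in TAC hearts and 1556 to 1806 CPM in shams. Pecam1 (0.37) rose, and its values did not overlap, while Kdr, another marker of endothelium, was not called. Of 17 smooth muscle and pericyte markers 9 rose and 1 fell, and Myh11, the defining myosin of smooth muscle, was not called (0.24, edgeR adjusted p = 0.0580, but 0.0235 without sham replicate 1 and 0.0326 among genes of at least 5 CPM).

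Several of the genes with the smallest p are not yet described. Pamr1, a secreted protein with a peptidase domain, had the smallest p of all and stood at 16.7, 15.4, 13.3 and 13.7 CPM in the TAC hearts and 1.598, 1.58, 2.27 and 2.21 CPM in the shams (7.61-fold, edgeR adjusted p = 1.96e-07). Srpx2 had 13.9, 12.9, 12.8 and 12.9 CPM in the TAC hearts and 3.23, 2.98, 3.44 and 3.61 CPM in the shams, with less than 2 CPM between the lowest and highest heart of each group. Svep1, a large adhesion protein, rose 4.63-fold, and Itgbl1, an integrin-like secreted protein, 5.26-fold. Among decreases, Whrn, a scaffold protein known from hair cells, had 7.68, 7.05, 5.23 and 5.91 CPM in the shams and 1.67, 1.55, 1.53 and 1.76 CPM in the TAC hearts (3.94-fold lower, edgeR adjusted p = 2.17e-06). Slc25a42, the mitochondrial carrier of coenzyme A, had 22.3, 20.9, 19.2 and 18.3 CPM in the shams and 6.95, 8.67, 9.02 and 7.28 CPM in the TAC hearts, and Ppm1l, a phosphatase of stress kinase paths, fell 2.04-fold. Wnk2, a kinase of ion transport, fell 3.05-fold, Lgals4, a galectin, 3.92-fold and Ucp3, a mitochondrial carrier, 3.74-fold.

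The effect at 2 weeks was set beside that at 8 weeks, in hearts the labels mark as HF (heart failure), each against its own shams. A test of the difference called 196 of 14463 genes (1.36%), 135 with a higher and 61 with a lower value of the TAC effect at 8 weeks (edgeR). In 151 of them the 2-week effect was the one farther from 0, and in 111 the effects at the 2 times had opposite signs. Neither count was set against its share over all genes tested. The count of 196 rests on single libraries, since leaving out 1 of the 16 gave 22 to 654 genes. Of the 16, 15 moved it by over 1.5 times, the exception being sham replicate 4 of 2 weeks (159). The 10 genes described next, the 5 of smallest p each way, kept their call whichever library was left out. With library totals the difference was no longer called for Acta1 (edgeR adjusted p = 0.0568), Coq5 (0.0676) and Narf (0.0781).

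The effect on Acta1 was 3.09 at 2 weeks and 4.73 at 8 weeks (difference 1.65, edgeR adjusted p = 0.0148). Bdh1, which makes and uses the ketone body hydroxybutyrate, was not called at 2 weeks (-0.05) and had 1.06 at 8 weeks, a difference of 1.113 (edgeR adjusted p = 0.00243). Taco1, an activator of mitochondrial translation, and Coq5, an enzyme of ubiquinone synthesis, had -0.78 and -0.73 at 2 weeks but 0.07 and -0.05 at 8 weeks (edgeR adjusted p of the differences = 0.0133 and 0.0148). H19 went from 0.62 to -1.40 (difference -2.01, edgeR adjusted p = 0.000245), so its effect changed sign. The procollagen protease Bmp1 went from 1.169 to 0.30, the soluble guanylyl cyclase gene Gucy1a1 from 0.62 to -0.10 and Arhgap18, a GTPase-activating protein, from 0.82 to -0.55. The effect on Narf was -0.39 at 2 weeks and 0.30 at 8 weeks, and that on Pitpnm1, not called at 2 weeks, was -0.91 at 8 weeks. Over whole lists, the fibrillar collagens had a median of 2.62 at 2 weeks and 1.43 at 8 weeks, with 2 of 9 members called in the difference, and complex I genes had -0.61 and -0.02, with 1 of 36 called.

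**Figure D5:**
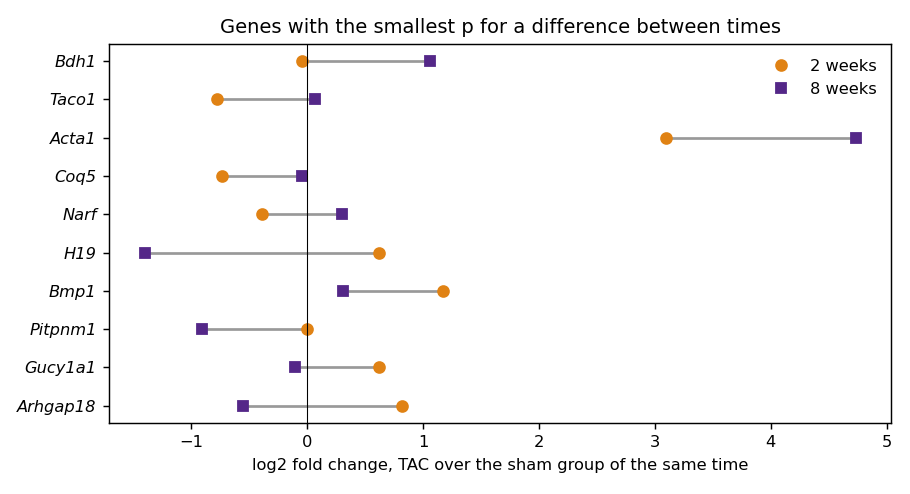
Log2 fold change of TAC over its own shams at 2 weeks (orange circles) and 8 weeks (purple squares) for the 10 genes that differed between the times with the smallest p, 5 each way. Acta1 moves from 3.09 to 4.73 and H19 from 0.62 to -1.40.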

How the data were processed

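RNA from 24 mouse hearts was sequenced after ribosomal RNA depletion, per the labels' protocols. The authors deposited expected counts per gene, made with Salmon on mm9 after FastQC, per the submitters' processing notes. The sources used here do not give versions, annotation or strand setting. The values are whole numbers and were used as deposited. Of 43432 genes 42462 were named through the GENCODE annotation by gene ID, and 1 row that names no gene held 0% of counts. Groups follow the titles.

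The comparison used edgeR 4.0.16 (R 4.3.3) with TMM factors and the quasi-likelihood test on the 8 libraries, genes passing filterByExpr and Benjamini-Hochberg adjustment. The test of 8 against 2 weeks used 16 libraries in one fit. DESeq2 1.42.0, other scalings, filters, a replicate block and leaving out each library were alternatives. Scripts were tested on simulated data. Depth was 18972525 to 30353572 counts, which limits rare genes. Ratios compare counts within a library, by exact two-sided permutation tests.

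The members and lists were chosen with earlier results of these data known. Named genes are, in each direction, the 10 called genes with the largest change and the 10 with the smallest p. Those of largest change had to have a mean of at least 5 CPM and no overlap of the groups, so their non-overlap follows from the rule. Up to 5 called members with the smallest p each way and the first 4 tested members of each list were named too. So were the ratio pairs, Dchs1, Dchs2 and 5 genes each way of the time difference. Acadm, Adcy5, Adcy6, Adm, Agt, Casq2, Cdh2, Csf1r, Dsc2, Fhl1, Fzd2, Kcnip2, Kdr, Lats2, Loxl1, Lpl, Mrtfb, Slc8a1, Srf, Tcap and Tfam were added after their values were seen. Promoters are RefSeq's, GRCm38.p6, matched by symbol; no coordinate of mm9 was used. Results on some genes, 1 of the 17 ratios among them, are not reported here.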

Additional observations from a re-analysis of the deposited data

Results flagged for a closer look

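Among 580 sets of 4 values (the named genes in each group, the ratios and the shares of counts), 26 had a library standing apart from the other 3 by Dixon's test at the 95% level, which chance gives in about 1 of 20 sets. TAC replicate 1 was high for Adgre1 (29.2 CPM, the others 21.3 to 22.0), Ccr2 (14.4 CPM, the others 10.2 to 10.6) and Srpx2 (13.9 CPM, the others 12.8 to 12.9). TAC replicate 2 was high for Herpud1 (54.2 CPM, the others 32.3 to 35.6) and Pdk3 (2.98 CPM, the others 2.13 to 2.25) and low for Gatm (2.01 CPM, the others 2.86 to 2.99) and Gja1 (128 CPM, the others 160.2 to 164). TAC replicate 3 was high for Adra1b (3.54 CPM, the others 2.39 to 2.56) and Ppm1k (44.3 CPM, the others 31.5 to 33.4) and low for Lats2 (21.0 CPM, the others 23.4 to 23.7) and Tgfbr1 (27.3 CPM, the others 31.9 to 32.1). TAC replicate 4 was high for Erbb3 (6.97 CPM, the others 5.54 to 5.74) and low for Adm (1.48 CPM, the others 2.13 to 2.22) and Emilin2 (7.25 CPM, the others 8.34 to 8.39). Sham replicate 1 was high for Adamts7 (13.2 CPM, the others 9.48 to 10.03), Lgals4 (13.9 CPM, the others 9.91 to 10.5) and Mhrt (13.6 CPM, the others 7.34 to 8.27) and low for Adgre1 (6.12 CPM, the others 10.3 to 10.7). Sham replicate 2 was low for Fmod (1.34 CPM, the others 2.19 to 2.29). Sham replicate 3 was high for Npr3 (29.3 CPM, the others 17.5 to 18.9) and Slc2a4 (156 CPM, the others 135 to 138). Sham replicate 4 was high for Eln (4.58 CPM, the others 1.95 to 2.35) and Loxl2 (18.8 CPM, the others 11.7 to 12.8). The log2 ratio of Myl7 to Myl2 was -10.24 in sham replicate 1 against -8.50 to -8.30 in the other shams, and that of Timp1 to Mmp2 was -3.04 in TAC replicate 1 against -3.82 to -3.72 in the other TAC hearts. Sham replicate 2 held the fewest counts outside mitochondrial genes, at 7.24 in units of 1000000 counts, the other shams 10.8 to 11.1. These cases were spread over all 8 libraries, from 2 to 5 each, and no sample was left out on their account.

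The TAC effect differed between 8 and 2 weeks by edgeR's test of the difference in 21 of the genes named here. The 10 described above had differences, 8 weeks minus 2 weeks on the log2 scale, of 1.113 for Bdh1, 0.85 for Taco1, 1.65 for Acta1, 0.69 for Coq5, 0.70 for Narf, -2.01 for H19, -0.86 for Bmp1, -0.90 for Pitpnm1, -0.72 for Gucy1a1 and -1.37 for Arhgap18. Among the others it was larger, in the positive direction, at 8 weeks for Scn4b (1.56, from -1.86 to -0.31), Eno3 (0.63, from -1.03 to -0.41), Slc2a4 (0.58, from -0.96 to -0.39) and Pygm (0.54, from -0.94 to -0.41). It was lower at 8 weeks for Eln (-1.99, from 3.14 to 1.144), Col3a1 (-1.55, from 2.98 to 1.43), Itga11 (-1.14, from 2.24 to 1.098), Mmp2 (-0.77, from 2.01 to 1.231), Gucy1b1 (-0.72, from 0.51 to -0.22), Sparc (-0.68, from 1.94 to 1.26) and Cd55 (-0.65, from 1.04 to 0.38). Their edgeR adjusted p values ran from 0.0243 to 0.0499. When each of the 16 libraries was left out in turn, these calls held in 5 fits for Cd55, 6 fits for Col3a1, 4 fits for Eln, 3 fits for Eno3, 12 fits for Gucy1b1, 4 fits for Itga11, 4 fits for Mmp2, 3 fits for Pygm, 5 fits for Scn4b, 2 fits for Slc2a4 and 4 fits for Sparc.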

How the results depend on the processing

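The counts of genes higher and lower stayed within 1.5 times of the values given under DESeq2 (2311 and 2341), RLE factors, no low-count filter, a minimum of 5 CPM in 4 libraries, all 24 libraries in one fit, and without single libraries (2057 to 2358 and 1863 to 2284), but not with library totals (6995 and 614). With mitochondrially encoded genes left out they were 2418 and 2280. Genes at least 2-fold changed numbered 1868 higher and 96 lower with library totals and 261 and 119 at 5 CPM, where fewer genes are tested. Of 240 named genes called, 229 kept direction and call under every alternative but library totals, which took the call from 36 of them. Among all named genes, called or not, library totals turned the sign of Actc1 (0.0253), Adcy5 (0.0709), Bdh1 (0.36), Casq2 (0.38), Cdh2 (0.000656), Cpt1a (0.14), Hk1 (0.40), Itga7 (0.0867), Narf (0.0134), Nkx2-5 (0.0210), Pitpnm1 (0.41), Ppp3ca (0.35) and Srf (0.34). List medians that turned positive with library totals were those of calcineurin, MAP kinase and growth signalling (0.27), calcium handling genes (0.37), clock genes (0.0603), erythroid and platelet markers (0.40), glucose uptake, glycolysis and glycogen (0.19), heat shock and redox genes (0.32), intercalated disc genes (0.0314), natriuretic and angiotensin receptors and proteases (0.25), thyroid, glucocorticoid and sex hormone signalling (0.17), ubiquitin ligases and autophagy (0.15) and aquaporins and solute carriers (0.34). Without single libraries the last of these medians ran from -0.13 to 0.00162 and that of atrial markers from -0.0277 to 0.53, and adipocyte markers had 0.11 at 5 CPM. The cause of these changes was not tested, beyond the shift of 0.41 in the median gene that library totals make. Without single libraries the log2 differences in ratio ran from 5.61 to 6.15 for Myh7/Myh6, from 3.37 to 3.59 for Acta1/Actc1, from 0.90 to 1.189 for Slc2a1/Slc2a4, from 0.39 to 0.52 for Cpt1a/Cpt1b and from 0.55 to 0.62 for Hk1/Hk2. They ran from 0.48 to 0.80 for Camk2d/Camk2b, from 0.99 to 1.199 for Eno1/Eno3, from 1.35 to 1.56 for Ckb/Ckm, from 1.29 to 1.87 for Timp1/Mmp2, from 0.89 to 1.163 for Itga5/Itga7 and from 0.52 to 0.89 for Tgfb2/Tgfb1. Each of these ratios passed 0.05 after adjustment in at least 1 such case. Passing there depends on how many of the 17 ratios tie at the smallest p the exact test can give, so it adds nothing for a single ratio.

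Replicate numbers are shared by TAC and sham libraries. Same-numbered libraries had correlations of deviations of 0.101, -0.014, 0.201 and 0.089, and those of unlike number ran from -0.291 to 0.231. Whether the numbers pair the libraries was not tested, and the main fit uses no pairing. With a replicate block 2683 genes were higher and 2676 lower, 704 and 358 of them at least 2-fold, and of the named genes Tgfb1 (adjusted p = 0.000516), Npr3 (0.00761) and Myh11 (0.0309) were called and Lyve1 (0.0934) was not. The difference between 8 and 2 weeks called 656 genes with a replicate block within each time, 621 with DESeq2, 30 with library totals and 22 to 654 without single libraries, against 196, so its count depends on each of these choices. Depth limits the rare transcripts: 24838 genes are tested without the low-count filter, with 2453 called higher and 2173 lower.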
